A study of Mus musculus with 24 samples.

Results

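The expression of 10 autophagy genes was followed in mouse bone marrow-derived macrophages (BMDM), which are macrophages grown from marrow cells with the growth factor M-CSF. The genes were *Sqstm1*, *Map1lc3b*, *Gabarapl1*, *Ulk1*, *Atg5*, *Atg12*, *Atg16l1*, *Wipi1*, *Becn1* and *Nbr1*. They were named as members of the autophagy pathway with earlier results of these data known, and each matched 1 of the 56884 gene identifiers in the count table. RNA-seq was done on 24 libraries in 6 groups of 4. All groups held cells from the same 4 wild-type C57BL/6J mice, females of 9 weeks, numbered 1, 2, 4 and 5. M0 cells were left naive. M2 cells received 20 ng/mL of IL-4 and 20 ng/mL of IL-13 for 24 hours. The other 4 groups received the same cytokines plus an inhibitor that was also given for 1 hour beforehand. Tunica cells had 5 µg/mL of tunicamycin, which blocks N-linked glycosylation in the endoplasmic reticulum. Sal003 cells had 10 µM of Sal003, an inhibitor of the removal of phosphate from the translation factor eIF2α. Oligo and Oli_ISR cells had 1 µM of oligomycin, an inhibitor of the mitochondrial ATP synthase, and 1 of these groups also had 1 µM of ISRIB, a small molecule that activates the exchange factor eIF2B and so dampens the integrated stress response. The labels disagree on which group that was, since the library names place ISRIB in Oli_ISR and the sample titles and treatment fields place it in Oligo. Both groups are therefore called by their library names, and which of them held ISRIB cannot be told apart from the labels.

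Autophagy is the route by which cells enclose part of their own cytoplasm in a double membrane, the autophagosome, and deliver it to lysosomes for breakdown. The ULK1 kinase complex starts the process, and the lipid kinase complex around Beclin 1 makes the phosphoinositide that WIPI proteins bind on the growing membrane. ATG12, joined to ATG5 and held by ATG16L1, then helps to attach proteins of the LC3 and GABARAP families to membrane lipid. Receptors such as p62, the product of *Sqstm1*, and NBR1 bind ubiquitin-marked cargo and LC3 at the same time and are themselves degraded with it. Macrophages use the pathway to clear damaged mitochondria and engulfed microbes. Transcript levels alone do not measure how much material passes through it.

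*Sqstm1* (ENSMUSG00000015837) lies on the minus strand of chromosome 11 of GRCm39, from 50089572 to 50107684. *Ulk1* (ENSMUSG00000029512) is on chromosome 5 from 110931496 to 110957995, and *Map1lc3b* (ENSMUSG00000031812) on chromosome 8 from 122317100 to 122325499. *Gabarapl1* (ENSMUSG00000030161) is on chromosome 6 from 129509725 to 129520544, and *Atg5* (ENSMUSG00000038160) on chromosome 10 from 44142076 to 44240308. *Atg12* (ENSMUSG00000032905) is on chromosome 18 from 46862694 to 46874886, and *Atg16l1* (ENSMUSG00000026289) on chromosome 1 from 87683592 to 87720150. *Wipi1* (ENSMUSG00000041895) is on chromosome 11 from 109464156 to 109502793, *Becn1* (ENSMUSG00000035086) on the same chromosome from 101176769 to 101193122, and *Nbr1* (ENSMUSG00000017119) from 101442962 to 101472781. All 10 are protein-coding genes.

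RefSeq promoter windows of 250 bases before and 50 after the start, given on GRCm38.p6, were found for 7 of the 10 genes (8 windows, because *Nbr1* has 2). None was found for *Atg12*, *Atg16l1* and *Becn1*. Every one of the 8 windows had a single exact match in GRCm39. They were searched on both strands for 4 motifs of stress and lysosome regulators. The letters TGATGNAA, a core of the elements bound by ATF4 with C/EBP factors, were in none of the 8 windows and in 3.97% of all 32851 RefSeq windows. The letters TCACGTGA, a core of the CLEAR element bound by TFEB, were also in none, against 0.974% of all windows. Its inner letters CACGTG, searched after the windows had been read, were in 1 window, that of *Atg5*, starting 14 bases before the RefSeq start, and in 7.15% of all windows. The endoplasmic reticulum stress response element was in none, against 0.119% of all windows. The antioxidant response element, searched as TGACNNNGC, was in 1 window, that of *Map1lc3b*, starting 5 bases after the RefSeq start, and in 12.4% of all windows. These results describe only these letters in these short windows.

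The sequences are shown for the gene that changed most and for 2 genes that fell with the inhibitors, as the stretches before the start that lie outside annotated exons. GC boxes (GGGCGG or CCGCCC), chosen after the windows had been read, are in capitals. They were in 7 of the 8 windows and in 35.7% of all windows. For *Ulk1* the stretch covers 202 bases at chr5:110957996-110958197 of GRCm39, minus strand, and holds 4 GC boxes. For *Map1lc3b* it covers 173 bases at chr8:122316927-122317099, plus strand, and holds none, although its window has 1 GC box nearer the start. The bases before the RefSeq start of *Sqstm1* lie inside an exon that GENCODE extends further upstream. Its 3 GC boxes, which start 72, 53 and 33 bases before the RefSeq start, are therefore shown with 8 bases on each side, at chr11:50101706-50101727, chr11:50101687-50101708 and chr11:50101667-50101688, minus strand.
Sqstm1 box at 72: tccagcggCCGCCCcagcctag
Sqstm1 box at 53: taggggagGGGCGGggctcata
Sqstm1 box at 33: tagaggctCCGCCCccacgagg
Ulk1: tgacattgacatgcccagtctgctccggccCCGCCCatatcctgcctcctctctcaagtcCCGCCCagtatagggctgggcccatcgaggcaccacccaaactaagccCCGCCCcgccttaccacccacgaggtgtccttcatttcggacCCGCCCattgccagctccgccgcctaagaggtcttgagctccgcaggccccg
Map1lc3b: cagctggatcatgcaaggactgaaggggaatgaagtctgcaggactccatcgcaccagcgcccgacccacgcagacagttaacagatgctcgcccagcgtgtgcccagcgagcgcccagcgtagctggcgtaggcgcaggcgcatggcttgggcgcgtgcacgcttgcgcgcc

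Libraries held 16238727 to 26725278 reads assigned to genes (median 18999998), and 13679 genes, all 10 members included, passed the filter on low counts. Levels are given as CPM, the read count of a gene scaled to a common library size. A gene counted as higher or lower where the p from the quasi-likelihood test of edgeR, adjusted over all 13679 genes by Benjamini and Hochberg's method, was under 0.05. Summed macrophage markers (6 genes, among them *Adgre1* and *Csf1r*) were between 4955 and 11162 CPM in every library, but single markers moved in opposite directions. With tunicamycin *Adgre1* was at 6678 CPM against 977 in M2, while *Csf1r* was at 821 against 3732, *Cd68* at 481 against 1229.5 and *Mertk* at 19 against 66, and of the 6 markers 2 were called higher and 3 lower. The summed neutrophil list (7 genes) moved with the groups, from 40.6 to 76.7 CPM in M0, 24.1 to 44.4 in M2, 0.103 to 0.286 in Tunica, 5.09 to 8.44 in Sal003, 2.73 to 4.71 in Oligo and 18.7 to 24.7 in Oli_ISR. *Elane* and *Camp*, the members of that list with the lowest means in M2 (0.565 and 0.497 CPM), were at 0 in all Tunica and all Oligo libraries, while *Ngp*, *S100a8*, *S100a9* and *Ltf* had means of 0.606 to 1.43 CPM in Oligo. The summed stromal list (4 genes) was 14.7 to 84.2 CPM in M2 and 3.36 to 24 in Tunica. The part of these lists in the results was not tested, and in bulk RNA fewer cells of a type and less RNA per cell cannot be told apart. The 4 comparisons of an inhibitor with M2 share the same 4 M2 libraries.

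*Sqstm1*, which encodes the cargo receptor p62, had the widest range of the 10 genes, with a 7.6-fold difference between its highest and lowest group means. In M0 it was at 654, 806, 688 and 716 CPM in mice 1, 2, 4 and 5. In M2 it was at 482, 491, 508 and 509.6 CPM in the same order of mice. Every M2 library was below every M0 library, and the fitted change was a fall by 0.52 on the log2 scale (SE 0.06, adjusted p = 8.3e-09). With tunicamycin *Sqstm1* stood at 3699, 3962, 3680.5 and 3794 CPM, the highest level of any group. This was 7.6-fold above M2 (log2 fold change 2.93, SE 0.06, adjusted p = 2.9e-23), and within mice the difference was between 2.86 and 3.01. In the Oligo libraries it was at 2390, 2479.6, 2523 and 2547 CPM, which was 4.99-fold above M2 (log2 fold change 2.32, SE 0.06, adjusted p = 1.1e-20). The within-mouse values of that difference were nearly equal, from 2.31 to 2.34.

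In the Oli_ISR libraries *Sqstm1* was at 1172, 1124, 1209 and 1245 CPM, between the Oligo and the Sal003 libraries with no overlap on either side. The level was 2.39-fold that of M2 (log2 fold change 1.25, SE 0.06, adjusted p = 2.2e-15), and the Oligo libraries were 2.09-fold above it (log2 fold change 1.07, SE 0.06, adjusted p = 1.6e-13). With Sal003 it was at 733, 694, 671 and 773 CPM. This was above every M2 library (log2 fold change 0.53, SE 0.06, adjusted p = 1.3e-08) but within the range of the naive cells, and Sal003 and M0 were the only neighbours in the order of group means that did not differ (718 and 716 CPM, log2 difference 0, SE 0.05, adjusted p = 0.95). The order was thus Tunica, Oligo, Oli_ISR, then Sal003 and M0, then M2. The gene *Mrnip* on the opposite strand covers 17.2% of the exon bases of *Sqstm1*, and whether reads were counted by strand is not given in the sources used here. *Mrnip* itself was counted at group means of 0.551 to 1.96 CPM. *Mgat4b*, also on the opposite strand, covers 1.72% of these exon bases. It was counted at group means from 130 CPM in M0 to 246 CPM in Oligo and Oli_ISR, with 169.8 CPM in M2.

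**Figure D1:**
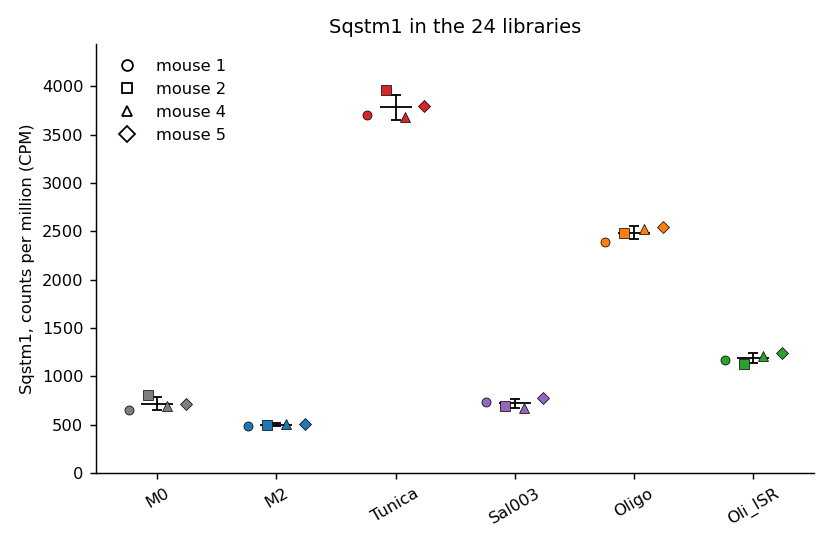
*Sqstm1* CPM (y axis) in the 24 libraries by group (x axis), with a marker shape for each mouse and a black line and bar for the mean and SD of 4 libraries. The Tunica libraries (3680.5 to 3962 CPM) and the Oligo libraries (2390 to 2547 CPM) stand above all others, and the M2 libraries are lowest (482 to 509.6 CPM).

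*Ulk1*, the kinase that starts autophagosome formation, moved the opposite way to *Sqstm1* in the cells given inhibitors. It was at 118, 101, 122 and 124 CPM in M0 and at 76.4, 76.8, 74.1 and 73.5 CPM in M2, a fall by 0.63 on the log2 scale (SE 0.06, adjusted p = 3.7e-10) with no overlap. It fell further with tunicamycin, to 52.8, 48.4, 53.4 and 48.6 CPM, and in Oligo, to 49.9, 51.9, 49.6 and 48.1 CPM. The changes from M2 were -0.57 (SE 0.06, adjusted p = 1.9e-09) and -0.59 (SE 0.06, adjusted p = 1.4e-09), and Tunica and Oligo did not differ from each other (log2 difference 0.03, SE 0.06, adjusted p = 0.72). The libraries of Sal003 (58.3 to 65.5 CPM) and Oli_ISR (60.7 to 67.3 CPM) lay between these and M2. Sal003 was lower than M2 by 0.30 (adjusted p = 7.1e-05) and Oli_ISR by 0.23 (adjusted p = 0.0012). All 20 libraries given cytokines were below all 4 naive ones.

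*Becn1*, which encodes the Beclin 1 scaffold of the lipid kinase complex, was the least variable member. Its group means lay between 132 and 139 CPM, single libraries between 127 and 145 CPM, and the highest mean was 1.05-fold the lowest. None of the 6 main comparisons called it, with fitted changes from -0.04 to 0.04 and an SE of 0.04 in each. The gene *Cntd1* on the opposite strand covers 43.8% of the exon bases of *Becn1* and was counted at group means of 0.203 to 0.596 CPM.

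*Wipi1*, a protein that binds the phosphoinositide on the forming membrane, had the lowest CPM of the 10 genes and was called in opposite directions with different inhibitors. It was at 28, 26, 27.9 and 24.6 CPM in M2 and higher with tunicamycin, at 34, 30.8, 31.8 and 31.1 CPM (log2 fold change 0.26, SE 0.09, adjusted p = 0.014). It was lower with the other inhibitors, at 15.8 to 22.3 CPM in Sal003, 18.5 to 19.9 CPM in Oligo and 16.1 to 20 CPM in Oli_ISR. The changes were -0.49, -0.46 and -0.51 (SE 0.10 in each), with adjusted p-values of 1.8e-04, 1.6e-04 and 9.3e-05. All of these libraries were below all M2 libraries, and the 3 groups did not differ between neighbours (adjusted p = 0.88 and 0.93). M2 and M0 did not differ beyond the spread (log2 fold change 0.16, SE 0.10, adjusted p = 0.16).

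The members of the ATG12 conjugation system moved little, and upwards where the main fit called them with an inhibitor. *Atg12*, the ubiquitin-like protein of the system, was at 76.9, 77.1, 70.2 and 72 CPM in M2. It rose in Oligo to 101, 99.4, 99.1 and 98.8 CPM and in Oli_ISR to 107, 95.4, 99.3 and 100.3 CPM. These were changes of 0.43 (SE 0.04, adjusted p = 1.5e-09) and 0.44 (SE 0.04, adjusted p = 1.8e-09), and Oligo and Oli_ISR did not differ (adjusted p = 0.86). The rises with tunicamycin (0.26, adjusted p = 4.1e-06) and Sal003 (0.23, adjusted p = 5.4e-05) were smaller, and again no library overlapped M2. *Atg12* was also slightly lower in M2 than in M0 (-0.11, SE 0.04, adjusted p = 0.028). That call was lost without mouse 4 or without mouse 5 (adjusted p = 0.22 for each).

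*Atg5*, the partner to which ATG12 is joined, was at 57.5 to 61.9 CPM in M0 and 58.2 to 63.7 CPM in M2, which did not differ beyond the spread (adjusted p = 0.29). It was higher than M2 with Sal003 (67.7 to 76.6 CPM, log2 fold change 0.22, adjusted p = 2.6e-04), in Oli_ISR (69.6 to 77.4 CPM, 0.22, adjusted p = 1.5e-04) and with tunicamycin (64.5 to 68.1 CPM, 0.12, adjusted p = 0.016). The call with tunicamycin was lost without mouse 4 (adjusted p = 0.056) and with upper-quartile scaling (adjusted p = 0.16). In Oligo it missed the threshold (0.10, SE 0.04, adjusted p = 0.054) and passed it with mouse as a block (adjusted p = 0.033). Oligo was lower than Oli_ISR by 0.12 (adjusted p = 0.027), a call lost without mouse 1, 4 or 5 (adjusted p = 0.2, 0.12 and 0.09). *Atg16l1*, which places the conjugate on the membrane, stayed between 36.9 and 49 CPM in all libraries. It was lower in M2 than in M0 by 0.17 (adjusted p = 0.016), and higher than M2 by 0.16 in Oligo (adjusted p = 0.016) and by 0.14 in Oli_ISR (adjusted p = 0.044). Each of these 3 calls was lost without mouse 1 (adjusted p = 0.14, 0.081 and 0.054), and the last also without any other mouse (adjusted p between 0.076 and 0.21). With mouse as a block *Atg16l1* also passed in Sal003 (0.14, adjusted p = 0.022, against 0.054 without the block). With tunicamycin *Atg16l1* missed the threshold (log2 fold change -0.09, SE 0.06, adjusted p = 0.15). It passed as lower with upper-quartile scaling (-0.15, adjusted p = 0.041) and with at least 10 counts in every library (-0.14, adjusted p = 0.034). The fit of the compared groups alone also called it lower (-0.12, adjusted p = 0.029).

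*Map1lc3b* encodes LC3B, which is attached to lipid on the autophagosome and is the usual marker of that membrane. Its transcript was at 178, 170.4, 171 and 166 CPM in M2 and fell in all 4 inhibitor groups. The lowest group means were those of Oligo and Tunica. Oligo libraries were at 113, 113, 119 and 113 CPM (log2 fold change -0.58, SE 0.06, adjusted p = 7.1e-09). Tunica libraries were at 125, 122, 117 and 115 CPM (-0.51, SE 0.06, adjusted p = 3.9e-08). Tunica and Oligo did not differ (adjusted p = 0.34). In Oli_ISR it was at 137, 120.1, 140.1 and 130.3 CPM (-0.38, SE 0.06, adjusted p = 1.0e-05), and Oligo was lower than Oli_ISR by 0.20 (adjusted p = 0.0091). Without mouse 1 or mouse 4 that last difference was not called (adjusted p = 0.12 and 0.054). Oli_ISR overlapped Tunica, and the difference between these groups was not called (0.14, SE 0.06, adjusted p = 0.05 as rounded). Sal003 was lower than M2 by 0.17 (adjusted p = 0.022), a call lost without mouse 1 or mouse 5 (adjusted p = 0.12 and 0.069). The difference between M2 and M0 was -0.16 (adjusted p = 0.026), and it was not called without mouse 1, 2 or 4 (adjusted p = 0.083, 0.21 and 0.055). Of the 50-base stretches of *Map1lc3b* exons, 5.68% also occur in other genes, among them the processed pseudogenes *Gm6054*, *Gm6055* and *Gm12727*, so some of its reads may have been dropped or assigned elsewhere.

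*Gabarapl1*, a member of the related GABARAP family that acts late in closing the autophagosome, was the only one of the 10 called higher in M2 than in M0. It was at 134, 161, 145 and 136 CPM in M0 and at 174, 166, 174 and 165 CPM in M2 (log2 fold change 0.24, SE 0.06, adjusted p = 0.0019). With tunicamycin it fell to 125, 120, 121 and 120.2 CPM, below every other library (-0.48, SE 0.06, adjusted p = 1.5e-07). The falls were smaller in Oligo (139.6 to 148 CPM, -0.23, adjusted p = 0.0021) and with Sal003 (137 to 166 CPM, -0.19, adjusted p = 0.011), and the latter overlapped M2 and was lost without mouse 1 or mouse 5 (adjusted p = 0.054 and 0.077). Oli_ISR ranged from 149 to 179 CPM and did not differ from M2 beyond its spread (-0.04, SE 0.06, adjusted p = 0.57). Oligo was lower than Oli_ISR by 0.19 (adjusted p = 0.018), a call lost without mouse 1, 4 or 5 (adjusted p = 0.14, 0.091 and 0.052). The long non-coding gene *1700101I11Rik* on the opposite strand covers 31% of its exon bases and was counted at group means of 0.309 to 0.615 CPM.

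*Nbr1*, the second cargo receptor among the 10, did not follow *Sqstm1*. It was at 193, 163, 200 and 204 CPM in M0 and at 148, 154, 151 and 155 CPM in M2, lower by 0.32 (SE 0.05, adjusted p = 5.8e-06). In Oligo, where *Sqstm1* was 4.99-fold above M2, *Nbr1* was at 124, 135, 129 and 133 CPM, below every M2 library (-0.22, SE 0.05, adjusted p = 4.3e-04). With tunicamycin it stood at 157 to 166 CPM, and the difference from M2 missed the threshold (0.08, SE 0.05, adjusted p = 0.16). Sal003 was higher than M2 by 0.14 (164 to 171 CPM, adjusted p = 0.021), a call lost without mouse 1, 4 or 5 (adjusted p = 0.11, 0.089 and 0.073). Oli_ISR (148 to 161 CPM) overlapped M2 (0.04, adjusted p = 0.57), and Oligo was lower than Oli_ISR by 0.26 (SE 0.05, adjusted p = 1.8e-04).

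**Figure D2:**
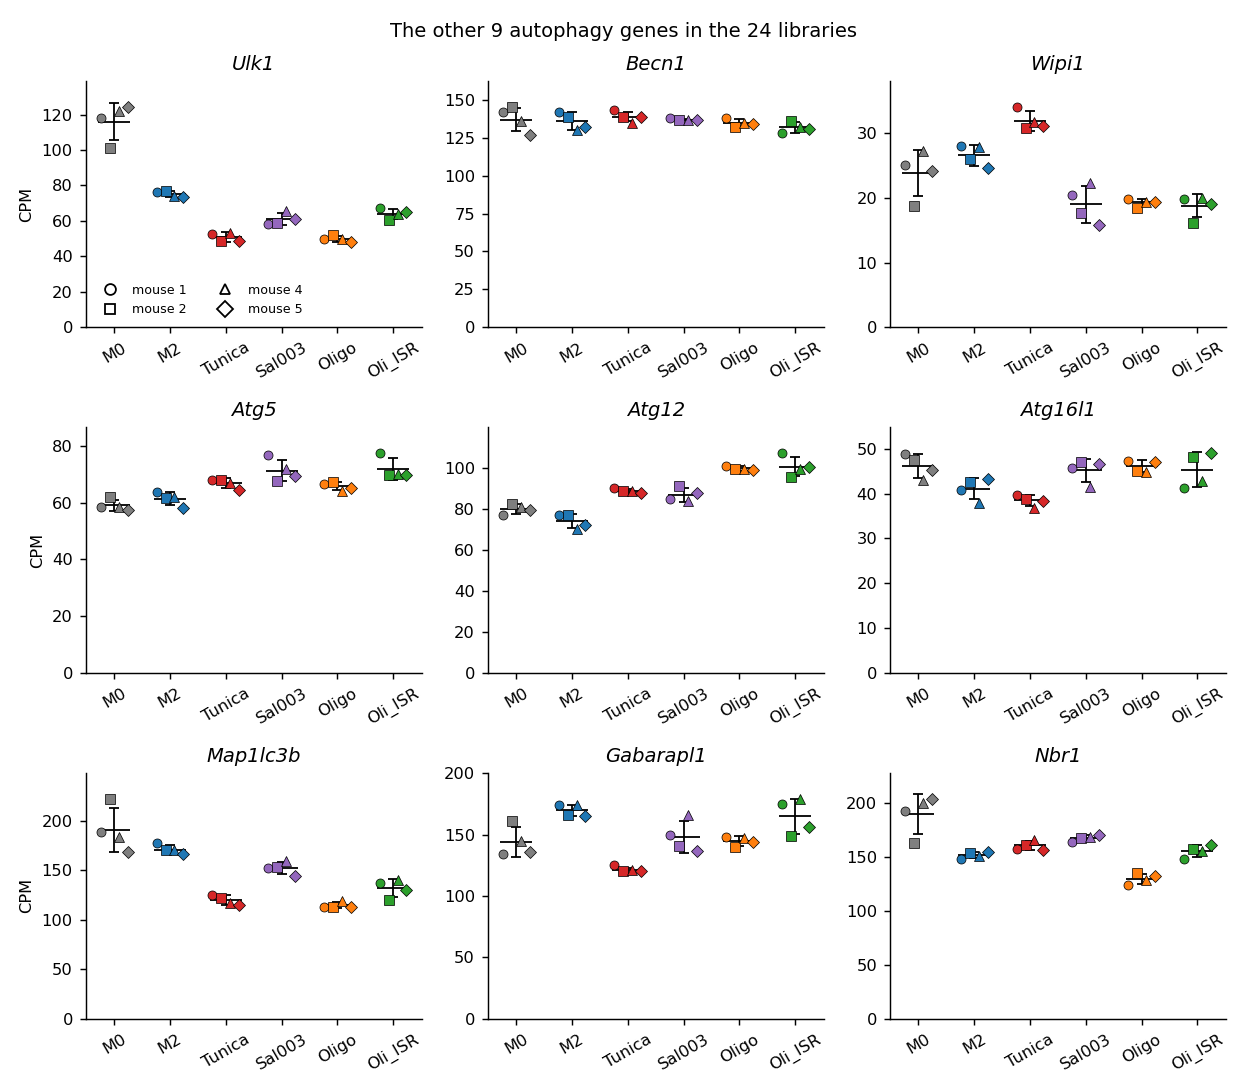
CPM (y axis, from 0) of the other 9 genes in the 24 libraries by group (x axis), with a marker shape for each mouse and black lines and bars for the mean and SD of 4 libraries. *Ulk1* is highest in M0 (101 to 124 CPM) and lowest in Tunica and Oligo (48.1 to 53.4 CPM), while *Becn1* stays between 127 and 145 CPM.

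Between 6 and 8 of the 10 genes were called in each of the 6 comparisons, and calls were common across the whole transcriptome. In M2 against M0, 1 member was called higher and 6 lower, where 30.1% of all genes tested were called higher and 30.4% lower. With tunicamycin 4 were higher and 3 lower than in M2, against 38.7% and 37.6% of all genes. With Sal003 4 were higher and 4 lower, against 25.9% and 24.6%. In Oligo 3 were higher and 5 lower, against 34% and 32.2%, and in Oli_ISR 4 were higher and 3 lower, against 27.9% and 26.4%. Between Oligo and Oli_ISR 1 was higher in Oligo and 5 were lower, against 19.9% and 21.3%. The counts moved when a mouse was left out, to 5 of 10 called with Sal003 without mouse 1 or mouse 5, and to 3 of 10 between Oligo and Oli_ISR without mouse 1 or mouse 4. Calls over all genes fell too. With Sal003 they were 5678 of 13703 genes without mouse 1 and 5814 of 13653 without mouse 5, against 6917 of 13679. Between Oligo and Oli_ISR they were 4376 of 13703 without mouse 1 and 4814 of 13804 without mouse 4, against 5634 of 13679.

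The study used a change of at least 2.5-fold for its calls of stimulated against naive cells. Applied to all comparisons here, that threshold was passed by *Sqstm1* alone, with tunicamycin and in Oligo. That threshold was passed by 22.6% and 12.7% of all genes in these comparisons. No member passed it in M2 against M0 (11.5% of all genes), with Sal003 (7.71%), in Oli_ISR (7.96%) or between Oligo and Oli_ISR (2.62%). The median absolute change of the 10 genes with tunicamycin was 0.26 on the log2 scale, against 0.58 over all genes tested, and in Oligo it was 0.33 against 0.40. The calls between neighbouring groups in the order of levels also stood against a wide background. Relative to M0, 77.6% of all genes were called in Tunica, 62.5% in Sal003, 71% in Oligo and 63.8% in Oli_ISR, in either direction. Relative to Tunica, 71.9% were called in Sal003, 63.5% in Oligo and 71.1% in Oli_ISR. Relative to Sal003, 51.5% were called in Oligo and 18.5% in Oli_ISR.

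**Figure D3:**
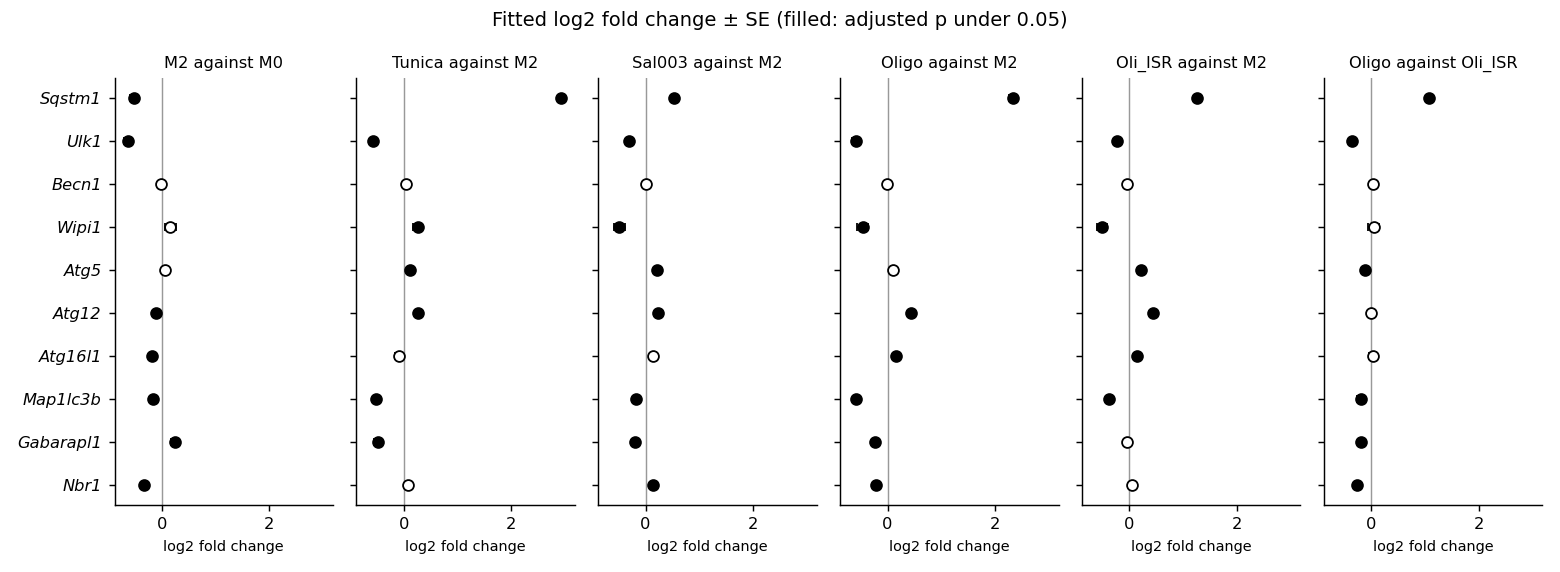
Fitted log2 fold change (x axis, with bars of 1 SE that are mostly smaller than the points) of the 10 genes (y axis) in the 6 comparisons, the group named first being the one compared. Filled points passed an adjusted p of 0.05 in edgeR's quasi-likelihood test. *Sqstm1* lies far to the right with tunicamycin (2.93) and in Oligo (2.32), and the other 9 genes stay between -0.63 and 0.44.

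The balance of transcripts among the 10 genes shifted with *Sqstm1*. To compare genes, CPM were divided by the length of merged exons in kilobases (CPM per kb). In M2 *Sqstm1* made up 29.2% ± 0.951 (SD, n = 4) of the summed CPM per kb of the 10 genes, *Sqstm1* and *Gabarapl1* being the most abundant at 60.7 and 45.9 CPM per kb. The share was 36.2% ± 1.77 in M0, 38.1% ± 2.12 with Sal003, 50.1% ± 1.1 in Oli_ISR, 69.9% ± 0.684 in Oligo and 78% ± 0.734 with tunicamycin. The summed level of the other 9 genes was 147 ± 2.95 CPM per kb in M2 and 129.7 ± 2.24 with tunicamycin. The shares depended little on the length used. With the canonical transcript, a length chosen after the annotation had been seen, *Sqstm1* took 26.3% in M2 and 76.8% with tunicamycin. The order of genes did depend on it, since *Map1lc3b* then came first in M2 at 193 CPM per kb and *Sqstm1* second at 152.

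A wider list of 61 autophagy genes in 7 roles was counted in the same way, and all 61 passed the filter. This list was also chosen with earlier results of these data known. It holds regulators such as *Mtor*, *Rptor* and *Rubcn* beside the machinery. A count of genes higher or lower therefore gives no direction of autophagy. In M2 against M0 7 genes were higher and 34 lower, which is 11.5% and 55.7% of the list against 30.1% and 30.4% of all genes, and the median change was -0.19 against -0.02 over all genes. With Sal003 28 were higher than in M2 and 3 lower, which is 45.9% and 4.92% of the list against 25.9% and 24.6% of all genes (median change 0.15 against 0). In Oli_ISR 27 were higher and 5 lower, or 44.3% and 8.2% against 27.9% and 26.4% (median 0.10 against 0). The shares with tunicamycin and in Oligo were nearer to those of all genes. With tunicamycin 29 were higher and 18 lower, or 47.5% and 29.5% against 38.7% and 37.6% (median 0.09 against 0.01). In Oligo 25 were higher and 17 lower, or 41% and 27.9% against 34% and 32.2% (median 0.06 against 0.01). Between Oligo and Oli_ISR 9 were higher and 20 lower in Oligo, or 14.8% and 32.8% against 19.9% and 21.3% (median -0.07 against 0). The changes themselves were smaller than those of all genes. The median absolute change of the list was 0.24 against 0.34 in M2 against M0 and 0.17 against 0.25 with Sal003. It was 0.18 against 0.28 in Oli_ISR, 0.35 against 0.58 with tunicamycin and 0.26 against 0.40 in Oligo. Between Oligo and Oli_ISR it was 0.15 against 0.21.

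Among the 16 further cargo receptors, 11 were lower in M2 than in M0 and 1 was higher, where 30.4% and 30.1% of all genes were. *Retreg1*, a receptor for the endoplasmic reticulum, fell by 1.35 on the log2 scale (36.1 CPM in M2 and 91.9 in M0, adjusted p = 4.6e-14). *Stbd1*, which binds glycogen, fell by 1.63 from a low level of 3.9 CPM (adjusted p = 3.8e-05). With tunicamycin 11 of the 16 rose from M2 and 4 fell, against 38.7% and 37.6% of all genes. With Sal003, 8 rose and none fell (25.9% and 24.6% of all genes). In Oli_ISR 9 rose and none fell (27.9% and 26.4%), and in Oligo 7 rose and 3 fell (34% and 32.2%). *Optn*, which encodes optineurin, another receptor for ubiquitin-marked cargo, was at 12.1, 11.4, 12 and 12.7 CPM in M2 and at 58.8, 53.7, 55.6 and 54.6 CPM with tunicamycin. It rose 4.62-fold (adjusted p = 9.6e-20), and also 4.45-fold in Oligo, 2.54-fold in Oli_ISR and 2.09-fold with Sal003 (adjusted p = 7.8e-19, 3.4e-14 and 4.7e-12). No *Optn* library of these 4 groups overlapped M2. Tunicamycin also raised *Wdfy3*, a large adaptor for aggregates, 2.93-fold to 312 CPM (adjusted p = 7.0e-12), *Rtn3*, a receptor for tubules of the endoplasmic reticulum, 2.39-fold to 681 CPM (adjusted p = 3.4e-17), and *Stbd1* 2.4-fold to 3 CPM (adjusted p = 5.8e-04). *Ncoa4*, the receptor for ferritin, was chosen after its values were seen: it fell by 0.88 with tunicamycin and by 0.62 in Oligo, and rose by 0.69 with Sal003 and by 0.26 in Oli_ISR.

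Of the 8 genes of the ULK1 complex and its regulators, 5 fell in M2 against M0 (30.4% of all genes did), led by *Ulk2*, the relative of *Ulk1* (66.6 against 139 CPM, a fall by 1.06, adjusted p = 2.2e-13). With tunicamycin 4 of the 8 rose and 2 fell, beside 38.7% and 37.6% of all genes. The largest ratio was that of *Prkaa2*, which encodes a catalytic subunit of the energy sensor AMPK and was barely detected in M2, with 3, 6, 6 and 5 counts per library (0.167 to 0.316 CPM). It was at 3.7, 5.38, 5.79 and 3.01 CPM with tunicamycin and 3.6, 5.31, 6.23 and 4.05 CPM in Oligo, 16-fold and 17.2-fold above M2 (adjusted p = 2.1e-11 for both). It was also 5.59-fold above M2 with Sal003 and 5.35-fold in Oli_ISR (adjusted p = 2.9e-06 and 3.7e-06), and 3.21-fold higher in Oligo than in Oli_ISR (adjusted p = 2.2e-06). These folds rest on few reads in M2.

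The other roles held smaller changes. Of the 10 fusion genes, which join autophagosome and lysosome, *Tecpr1* rose 2.27-fold in Oligo and 2.34-fold in Oli_ISR, from 109 to 246 and 254 CPM (adjusted p = 2.8e-15 and 5.0e-15), and *Epg5* rose 2.19-fold with tunicamycin (adjusted p = 1.2e-10). *Tecpr1* was also above every M2 library (103 to 112 CPM) with Sal003 (206 to 215 CPM) and tunicamycin (151 to 179 CPM). Its mean in M0 was 186 CPM. Between Oligo and Oli_ISR 7 of the 10 fusion genes were lower in Oligo and none was higher, against 21.3% and 19.9% of all genes. Of the 9 genes of lipid binding and membrane supply, *Tmem41b*, a scramblase of the endoplasmic reticulum, rose 2.33-fold with tunicamycin, from 23.5 to 54.8 CPM (adjusted p = 2.7e-16). Of the 8 genes grouped under conjugation, which include *Atg16l2* and the *Atg4* genes, 4 rose and 1 fell in Oligo (34% and 32.2% of all genes). In Oli_ISR 5 rose and none fell (27.9% and 26.4%). *Atg3*, the enzyme that passes LC3 to lipid, is given as an example chosen after its values were seen, with rises of 0.68 with tunicamycin and 0.66 in Oligo. Of the 7 genes of the class III lipid kinase complex, 5 fell and 1 rose in M2 against M0 (30.4% and 30.1% of all genes). With Sal003, 4 rose and none fell (25.9% and 24.6%), and with tunicamycin 4 rose and 3 fell (38.7% and 37.6%). In Oligo 3 rose and 2 fell (34% and 32.2%), and in Oli_ISR 3 rose and 1 fell (27.9% and 26.4%). In the LC3 and GABARAP family, 1 of the other 3 genes rose in each inhibitor group, where 25.9% to 38.7% of all genes did. It was *Gabarap* in all 4 groups, named after its values were seen, by 0.57 with tunicamycin, 0.45 with Sal003, 0.20 in Oligo and 0.24 in Oli_ISR. *Gabarapl1* was below M2 in the first 3 of these groups, as given above. Of the other 3 genes, 1 fell in each of Tunica, Oligo and Oli_ISR (37.6%, 32.2% and 26.4% of all genes). None fell with Sal003 (24.6%). In M2 against M0 2 of the 3 fell and none rose (30.4% and 30.1%).

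**Figure D4:**
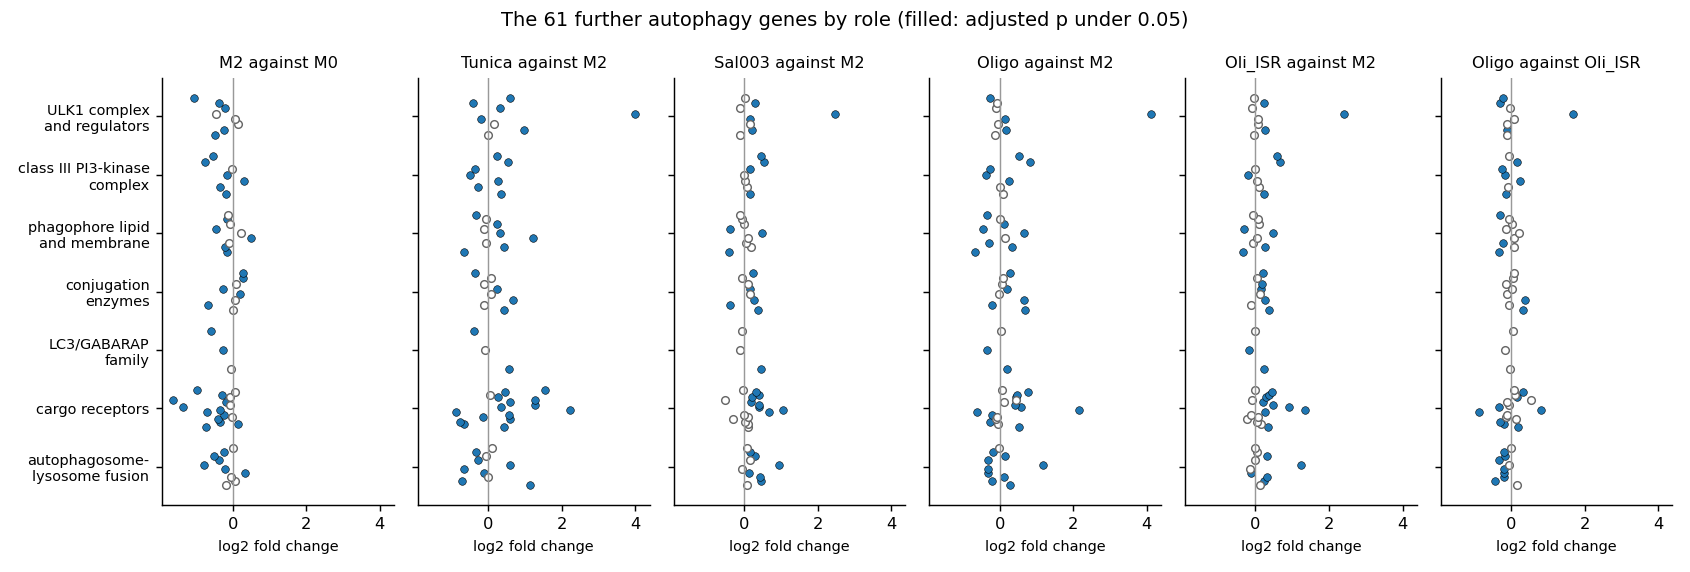
Fitted log2 fold change (x axis) of the 61 further autophagy genes by role (y axis) in the 6 comparisons, 1 point per gene, filled where the adjusted p was under 0.05. Most points lie left of 0 in M2 against M0 (34 lower, 7 higher), and the points furthest to the right with the inhibitors are *Prkaa2* (up to 4.1) and *Optn* (up to 2.21).

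*Sqstm1* was set beside genes of the integrated stress response, in which phosphorylated eIF2α favours translation of the transcription factor ATF4. *Atf4* had group means of 116 CPM in M0, 136 in M2, 206 with Sal003, 478 in Oli_ISR, 704 in Oligo and 1094 with tunicamycin. *Trib3*, a target of ATF4 and CHOP, was at 2.39, 3.55, 33.8, 146, 542 and 835 CPM in the same order. *Ddit3*, which encodes CHOP, was at 27.7, 32.4, 63.4, 123, 226 and 600.2 CPM, for the more counted of the 2 identifiers with this symbol. The means of the 5 cytokine-treated groups stood in the same order for *Sqstm1* as for these 3 genes. M0 had the lowest mean for these 3 genes and was level with Sal003 for *Sqstm1*. For *Ddit3*, however, M0 and M2 overlapped and did not differ beyond the spread (adjusted p = 0.088). The list of this response held 4 further genes, whose values had been seen before they were described here. *Asns*, *Chac1* and *Sesn2* had the same order of the 5 groups, although *Asns* did not differ between Oligo and Oli_ISR beyond the spread (161 and 146 CPM, adjusted p = 0.15). *Sesn2*, which encodes a stress-induced inhibitor of mTORC1 signalling, had a mean of 50.6 CPM in M0, 31.7 in M2 and 36.6 with Sal003. *Ddit4*, another inhibitor of that pathway, broke the order, at 4.07 CPM in M2, 2.25 with Sal003, 3.25 with tunicamycin, 4.11 in Oli_ISR and 5.18 in Oligo, and it was lower than M2 with tunicamycin (adjusted p = 0.025) and with Sal003 (adjusted p = 9.4e-06). In *Trib3* the rise with Sal003 was 9.47-fold (adjusted p = 3.0e-17), beside 1.44-fold for *Sqstm1*.

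NRF2, the factor of the oxidative stress response, and TFEB, TFE3 and MITF, which drive lysosome and autophagy genes, are further known regulators of members of the pathway. Of 5 NRF2 targets (*Nqo1*, *Hmox1*, *Gclm*, *Txnrd1* and *Srxn1*), 3 were higher in M2 than in M0 (30.1% of all genes) while *Sqstm1* was lower. With tunicamycin 2 rose and 2 fell, close to the 38.7% and 37.6% of all genes, and with Sal003 5 fell (24.6%). In Oligo 1 rose and 2 fell (34% and 32.2%), in Oli_ISR 4 fell (26.4%), and 4 were higher in Oligo than in Oli_ISR (19.9%). The values of single genes in this paragraph were chosen after they were seen. *Gclm* rose with tunicamycin (log2 fold change 1, adjusted p = 1.4e-10) and in Oligo (0.88, adjusted p = 2.3e-09), and in Oli_ISR it was at the M2 level (-0.01, adjusted p = 0.96). *Nqo1* fell with tunicamycin (-0.87, adjusted p = 4.4e-07) and in Oligo (-0.46, adjusted p = 0.0012). *Txnrd1* also fell in both (-0.19 and -0.30, adjusted p = 0.026 and 0.001). *Tfeb* fell from 132 CPM in M2 to 30.5 with tunicamycin (-2.12, adjusted p = 3.5e-19), and *Mitf* from 239 to 39.9 CPM (-2.58, adjusted p = 5.4e-21). In Oligo *Tfeb* and *Mitf* fell by 0.66 and 0.60, to 83.7 and 158 CPM. Both had been higher in M2 than in M0, where they were at 85.6 and 118 CPM (0.63 and 1.02, adjusted p = 6.1e-09 and 6.3e-13). *Tfe3* fell by 0.55 with tunicamycin and by 0.29 in Oligo. The activity of these factors was not measured.

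**Figure D5:**
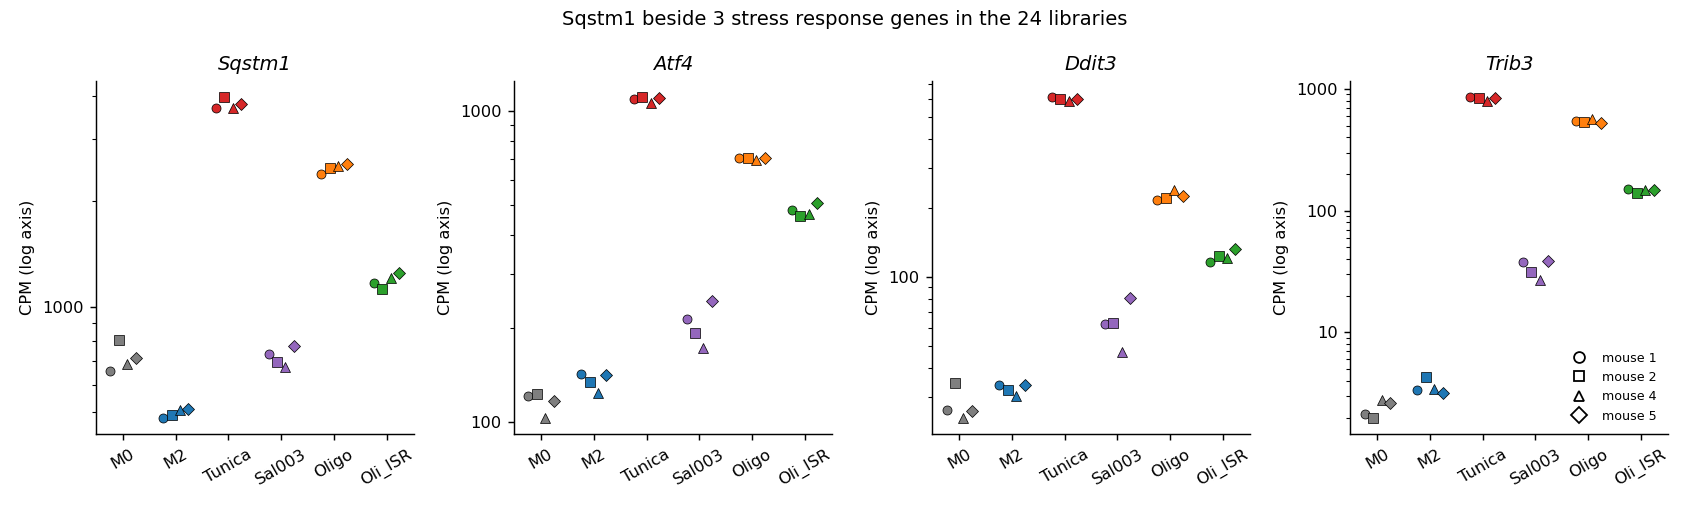
CPM (y axis, log scale) of *Sqstm1*, *Atf4*, *Ddit3* and *Trib3* in the 24 libraries by group (x axis), with a marker shape for each mouse. In all 4 panels Tunica is highest, then Oligo, Oli_ISR, Sal003 and M2, while M0 is level with Sal003 for *Sqstm1* (716 and 718 CPM) and has a lower mean than M2 in the other panels.

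The genes whose log2 CPM followed *Sqstm1* most closely over the 24 libraries, out of 10597 with a mean of at least 50 counts, were *Acot2*, a mitochondrial thioesterase (Pearson r 0.99), *Cyb5r1* (0.989), *Ppp1r15a*, which encodes the GADD34 subunit that removes phosphate from eIF2α (0.988), *Plcl2* (0.986) and *Taf15* (0.986). Among the members themselves, over the same libraries, *Sqstm1* ran against *Map1lc3b* (-0.83), *Ulk1* (-0.70) and *Gabarapl1* (-0.66) and with *Atg12* (0.62). *Map1lc3b* and *Ulk1* ran together (0.86), as did *Ulk1* and *Nbr1* (0.72), and *Wipi1* ran against *Atg16l1* (-0.78). *Becn1* followed none of them, with values between -0.28 and 0.22. These values describe libraries that share mice, groups and depth, and they carry no test.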

How the data were processed

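RNA from the 24 BMDM libraries was prepared with an mRNA kit. Per the labels, the submitters' processing notes name cutadapt 1.8, STAR 2.7, HTSeq 0.9.1 and RSEM 1.2.31 with the genome GRCm39. The authors deposited raw read counts per gene, which were the values used here. Their TPM table was not used, because its header has 28 names over 25 cells per line. The 5 lines that name no gene, 12.7 to 15.2% of the reads, entered neither library sizes nor tests.

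Counts were analysed with edgeR 4.0.16 in R 4.3.3 (TMM, filterByExpr, quasi-likelihood test, 1 coefficient per group over all 24 libraries, no block), with Benjamini-Hochberg adjustment over 13679 genes. The median biological coefficient of variation was 7.06%, and the total gene counts of 16238727 to 26725278 per library limit precision for genes of a few reads only. CPM used TMM library sizes, log2 CPM a prior count of 2. SE was the absolute log2 fold change divided by the square root of F. GENCODE M39 gave symbols for 56323 of 56884 identifiers, and RefSeq gave promoter windows. The procedure was tested on simulated data. Alternatives were DESeq2 1.42.0, upper-quartile scaling, other filters, fits of the compared groups alone, mouse as a block, each mouse left out and a 2.5-fold threshold. Figures used matplotlib.

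The numbers 1, 2, 4 and 5 name the mouse in every group. Deviations from group means correlated with a median r of 0.32 over 60 pairs of libraries from the same mouse (55 above 0.1) and of -0.09 over 180 pairs from different mice.

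The 10 genes, the wider list and the context lists were chosen with earlier results of these data known. Named in the text were all 10 genes, the genes of the wider list with an adjusted p under 0.05 and at least a 2-fold change (at most 8 per comparison), *Atf4*, *Ddit3* and *Trib3*, and the 5 genes closest to *Sqstm1*. Outside this rule, *Ncoa4*, *Atg3*, *Gabarap*, the other genes of the context lists, the cell type markers and the genes that overlap a member were named after their values were seen.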

Additional observations from a re-analysis of the deposited data

Results flagged for a closer look

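In each of 60 sets of 4 libraries (10 genes in 6 groups), the gap between the highest or lowest library and its nearest neighbour was compared with the whole range, and 4 gaps exceeded Dixon's 95% critical value. Chance alone gives about 1 such gap in 20 sets. *Atg5* in Oli_ISR was at 77.4 CPM in mouse 1, and the other libraries were between 69.6 and 70.2 CPM. *Map1lc3b* in Oligo was at 119 CPM in mouse 4, and the others were at 113 CPM. *Gabarapl1* with tunicamycin was at 125 CPM in mouse 1, and the others were between 120.0 and 121 CPM. *Becn1* with Sal003 was at 138 CPM in mouse 1, and the others were at 137 CPM.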

How the results depend on the processing

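Of 600 values of single genes under the alternatives, 530 kept their direction and their side of the threshold, 48 kept the direction and lost the call, 6 gained a call and 16 changed sign, none of which had been called. The sign changes were those of *Becn1* in M2 against M0 (0.01 with DESeq2 and 0.01 with no filter), with tunicamycin (-0.02 with upper-quartile scaling and -0.01 with at least 10 counts in every library), with Sal003 (0 with DESeq2, -0.02 with upper-quartile scaling, -0.01 with at least 10 counts, -0.01 with the compared groups alone, and 0 without mouse 4 or mouse 5) and in Oligo (-0.03 to 0.02 when each mouse was left out), of *Nbr1* in Oli_ISR (-0.01 with upper-quartile scaling), and between Oligo and Oli_ISR of *Atg12* (0.03 with upper-quartile scaling and -0.03 to 0.02 when each mouse was left out), *Atg16l1* (-0.02 to 0.06) and *Wipi1* (0 to 0.07). Apart from leaving out mice, calls ended for *Map1lc3b*, *Atg12* and *Atg16l1* in M2 against M0, *Atg5* with tunicamycin, *Nbr1* with Sal003, *Atg16l1* in Oligo and Oli_ISR, and *Gabarapl1* and *Atg5* between Oligo and Oli_ISR (adjusted p from 0.051 to 0.4). The number of the 10 genes called in M2 against M0 was 4 with no filter, where 27890 genes were tested, against 7. Over all genes 8299 of these 27890 were called, beside 8279 of 13679 in the main fit. With the 2.5-fold threshold the counts were 0 in M2 against M0, 1 with tunicamycin, 0 with Sal003, 1 in Oligo, 0 in Oli_ISR and 0 between Oligo and Oli_ISR, by the stricter threshold itself. Leaving out each mouse gave 5 to 6 calls in M2 against M0, 6 to 7 with tunicamycin, 5 to 8 with Sal003, 7 to 8 in Oligo, 6 in Oli_ISR and 3 to 6 between Oligo and Oli_ISR. Over all genes these fits tested 13653 to 13804. They called 7194 to 8234, 9791 to 10119, 5678 to 6680, 8228 to 8794, 6229 to 7136 and 4376 to 5369 in the same order. The main fit called 8279, 10437, 6917, 9051, 7428 and 5634 of 13679. With mouse as a replicate block the 10 genes gave 7, 7, 9, 9, 7 and 6 calls in the same order. All 13679 genes gave 8712, 10707, 7309, 9400, 7869 and 6062 calls with the block. The block added *Atg16l1* with Sal003 (0.14) and *Atg5* in Oligo (0.10) and changed no other call of the 10 genes. Where no reason is given, the cause was not tested. No scaling moved the median of all genes by more than 0.1 on the log2 scale, and the calls of *Sqstm1* held under all alternatives except the 2.5-fold threshold. Changes near 0.1 were at the limit of what 4 libraries per group resolve.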
